A study of Mus musculus with 23 samples.

Results

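Expression of 10 genes of the MHC class II presentation route was followed in whole lung of adult mouse offspring. The genes were H2-Aa, H2-Ab1, H2-Eb1, Cd74, Ciita, H2-DMa, H2-DMb1, H2-Oa, Cd86 and Cd80, chosen by symbol from the 35322 genes measured. All 10 passed a filter of at least 0.5 RPM (reads scaled to a common library total) in at least 4 of the 23 libraries, as did 16795 genes in all. BALB/c dams received fine particulate matter (PM2.5) or saline by the intranasal route before mating, through gestation and until weaning, and the lungs of their female offspring were collected at 13 weeks. Lungs were taken after lung function testing under anaesthesia with nebulised methacholine. The paper also describes lavage of the airways after that test, without naming the animals. Offspring of saline dams formed Sham (n = 7) and Sham-OVA (n = 5), and offspring of PM2.5 dams formed PM (n = 7) and PM-OVA (n = 4). OVA groups were sensitised to ovalbumin in alum by injection and then breathed nebulised ovalbumin, as a model of allergic airway disease, whereas Sham and PM offspring were control animals that breathed saline (named PBS in the sample labels). No animal carried a transgene or a deleted gene. The comparisons ask how the class II route differed after OVA challenge in each cohort and whether maternal PM2.5 altered it.

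MHC class II molecules are pairs of an alpha and a beta chain that show peptides from engulfed antigen to CD4 T cells, and in lung they are best known on dendritic cells, B cells and macrophages. The invariant chain encoded by Cd74 fills the groove while the pair is being carried to the endosome, where H2-DM, a heterodimer of H2-DMa and H2-DMb, exchanges the remnant of Cd74 for antigen peptide and H2-O, a heterodimer of H2-Oa and H2-Ob, restrains H2-DM. CIITA, encoded by Ciita, is the coactivator that joins the RFX and NF-Y factors on the X and Y boxes of these promoters and switches the genes on, and Cd80 and Cd86 encode the B7 ligands that give the T cell its second signal through CD28.

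The X and Y boxes could be read in the promoter sequences of several class II genes, and they are shown because CIITA works through them. The sequences are those of the reference genome, which is of another strain than the animals. RefSeq promoters of GRCm38.p6, each 300 bases long from 250 before the start to 50 after it, were matched for 6 of the 10 genes: H2-Aa, H2-Eb1, H2-DMa, H2-DMb1, H2-Oa and Cd80. No promoter sequence was used for H2-Ab1, Ciita, Cd86 or the invariant chain gene. Promoters were searched for GNAAC, letters of the X box, followed 30 to 34 bases later by ATTGG, the Y box, which is CCAAT read on the other strand. The letters and the distance were chosen after the sequences were seen. In each window the 5 bases of either box are in capitals and the sequence runs 5′ to 3′ on the strand of the gene.
H2-Aa: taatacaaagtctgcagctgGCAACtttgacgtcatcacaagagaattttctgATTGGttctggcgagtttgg
H2-Eb1: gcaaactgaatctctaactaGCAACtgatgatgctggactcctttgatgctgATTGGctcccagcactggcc
H2-DMb1: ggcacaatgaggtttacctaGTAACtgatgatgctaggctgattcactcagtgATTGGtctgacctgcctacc
H2-Oa: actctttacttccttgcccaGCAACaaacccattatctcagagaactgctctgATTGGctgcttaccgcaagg
H2-Ob: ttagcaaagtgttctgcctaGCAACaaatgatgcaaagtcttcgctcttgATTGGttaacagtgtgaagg
H2-Eb2: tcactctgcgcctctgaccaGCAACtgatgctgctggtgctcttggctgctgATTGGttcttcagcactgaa

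The windows lie on chromosome 17 of GRCm38.p6, at chr17:34287852-34287924 on the minus strand for H2-Aa and on the plus strand at chr17:34305756-34305827 for H2-Eb1, chr17:34153077-34153149 for H2-DMb1, chr17:34092283-34092355 for H2-Oa, chr17:34238798-34238867 for H2-Ob and chr17:34325523-34325594 for H2-Eb2. The first 4 belong to genes of the list and the last 2 to related class II genes. The X letters began 33 bases before the Y letters in H2-Aa, H2-DMb1 and H2-Oa, 32 in H2-Eb1 and H2-Eb2, and 30 in H2-Ob. Such a pair was present in 0.855% of the 32851 promoters searched on both strands, or 281 promoters. The stricter X core AGCAAC was present in 14.8% and CCAAT in 37.4% of promoters on either strand. Among the genes of the list, AGCAAC was present in the H2-Eb1 and H2-Oa promoters and was not found in those of H2-Aa and H2-DMb1. The pair was not found in the promoter of Cd80, in the 2 H2-DMa promoters or in that of H2-DMb2, a related gene outside the list. A match describes letters and is not evidence of a bound factor. As described below, the 4 genes of the list shown above differed widely in their response to OVA challenge, with the largest log2 fold changes of the 10 genes for H2-DMb1 and far smaller ones for H2-Oa.

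The 14 saline libraries held 13089691 to 17393579 reads on genes and the 9 OVA libraries 2298645 to 12355561. The fewest were in replicate 3 of Sham-OVA and replicates 3 and 4 of PM-OVA, where 1 read was worth 0.311, 0.133 and 0.182 RPM against 0.0502 to 0.0688 RPM in the saline libraries. The median log2 fold change of all genes tested was -0.48 in Sham and -0.43 in PM offspring after OVA challenge, and fold changes below are given as fitted: relative to this shift each is higher by 0.48 in Sham and by 0.43 in PM offspring. Sham replicate 1 went against the sex given for the animals: it had 0.289 RPM of Xist against 174 to 1618 RPM elsewhere, and the Y-linked gene Eif2s3y stood at 54.04 RPM and at 0 in the other 22 libraries. It was also the lowest of the 14 saline libraries for 8 of the 10 genes, and the values without it are given where the OVA response in Sham offspring, maternal exposure, gene lists and likeness to H2-Ab1 are described. Lung markers were high in every group, with Sftpc, the surfactant protein C gene, at 10058 ± 2966 RPM in Sham. The reference genome is that of another strain with other H2 alleles, and an effect of this on the reads counted for each H2 gene was not tested; it would be shared by all groups.

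Cd74 was the most abundant of the 10 genes and Cd80 the least, in saline and OVA groups alike. Per kilobase of exon, Cd74 had 575 ± 167 RPM (SD, n = 7) in Sham. The chains of the classical pairs followed at 103 ± 30.4 RPM per kilobase for H2-Eb1, 75.4 ± 20.01 for H2-Ab1 and 57.5 ± 17.5 for H2-Aa, neighbours whose spreads overlapped. The peptide exchange chains had 13.4 ± 3.69 RPM per kilobase for H2-DMa and 7.26 ± 2.44 for H2-DMb1. At the low end, H2-Oa at 3.13 ± 1.31, Ciita at 2.41 ± 0.36 and Cd86 at 2.01 ± 0.33 RPM per kilobase did not differ beyond their spread, and Cd80 was at 0.873 ± 0.177. In Sham-OVA the same scale gave 2792 ± 1101 for Cd74, 611 ± 121 for H2-Eb1 and 443 ± 84.0 for H2-Ab1 (n = 5). H2-DMb1 and H2-DMa were then level at 45.9 ± 6.87 and 45.5 ± 6.05 RPM per kilobase, and Ciita, Cd86 and Cd80 were within 1 SD of each other at 3.44 ± 1.40, 2.92 ± 0.90 and 2.69 ± 1.04.

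After OVA challenge the class II chains, Cd74 and both H2-DM chains rose together in both cohorts, whereas Ciita and Cd86 were not called. Of the 10 genes, 8 rose in Sham and 8 rose in PM offspring at a Benjamini-Hochberg adjusted p under 0.05 in limma, and 0 fell. Of all genes tested, 20.6% were called higher and 47.5% lower in Sham offspring, and 20.1% higher and 45.2% lower in PM offspring. The 10 genes and the gene lists below were chosen with earlier results of these data known. Counts set beside such shares are therefore a description and not a test of the lists. The median log2 fold change of the 10 genes was 1.99 in Sham and 1.67 in PM offspring. In 7 of the 10 genes the OVA and saline libraries of each cohort did not overlap, the OVA libraries being higher, as in 13.2% of all genes tested in Sham and 13.3% in PM offspring. At the study's stricter threshold of an adjusted p under 0.000001 and a log2 fold change above 1, H2-Ab1, H2-Eb1 and H2-DMb1 were called in Sham offspring, where 1.98% of all genes were called higher, and H2-Ab1 and H2-Eb1 in PM offspring, where 0.262% were. With DESeq2, the study's own tool, run on the recovered reads, all 10 genes were called higher in both cohorts, against 31.7% of all genes in Sham and 32.1% in PM offspring. Leaving out 1 library gave 0 to 6 genes past the stricter threshold in Sham and 0 to 4 in PM offspring, 0 and 6 being without Sham-OVA replicate 2 and replicate 3. Without Sham replicate 1 the limma counts in Sham offspring stayed at 8 and 3, and the log2 fold changes were 2.18 for H2-Aa, 2.48 for H2-Ab1, 2.49 for H2-Eb1, 2.12 for Cd74, 1.69 for H2-DMa, 2.55 for H2-DMb1, 1.43 for Cd80, 0.46 for Cd86 and 0.37 for Ciita. In whole lung, more cells of a type and more RNA per cell cannot be told apart.

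**Figure D1:**
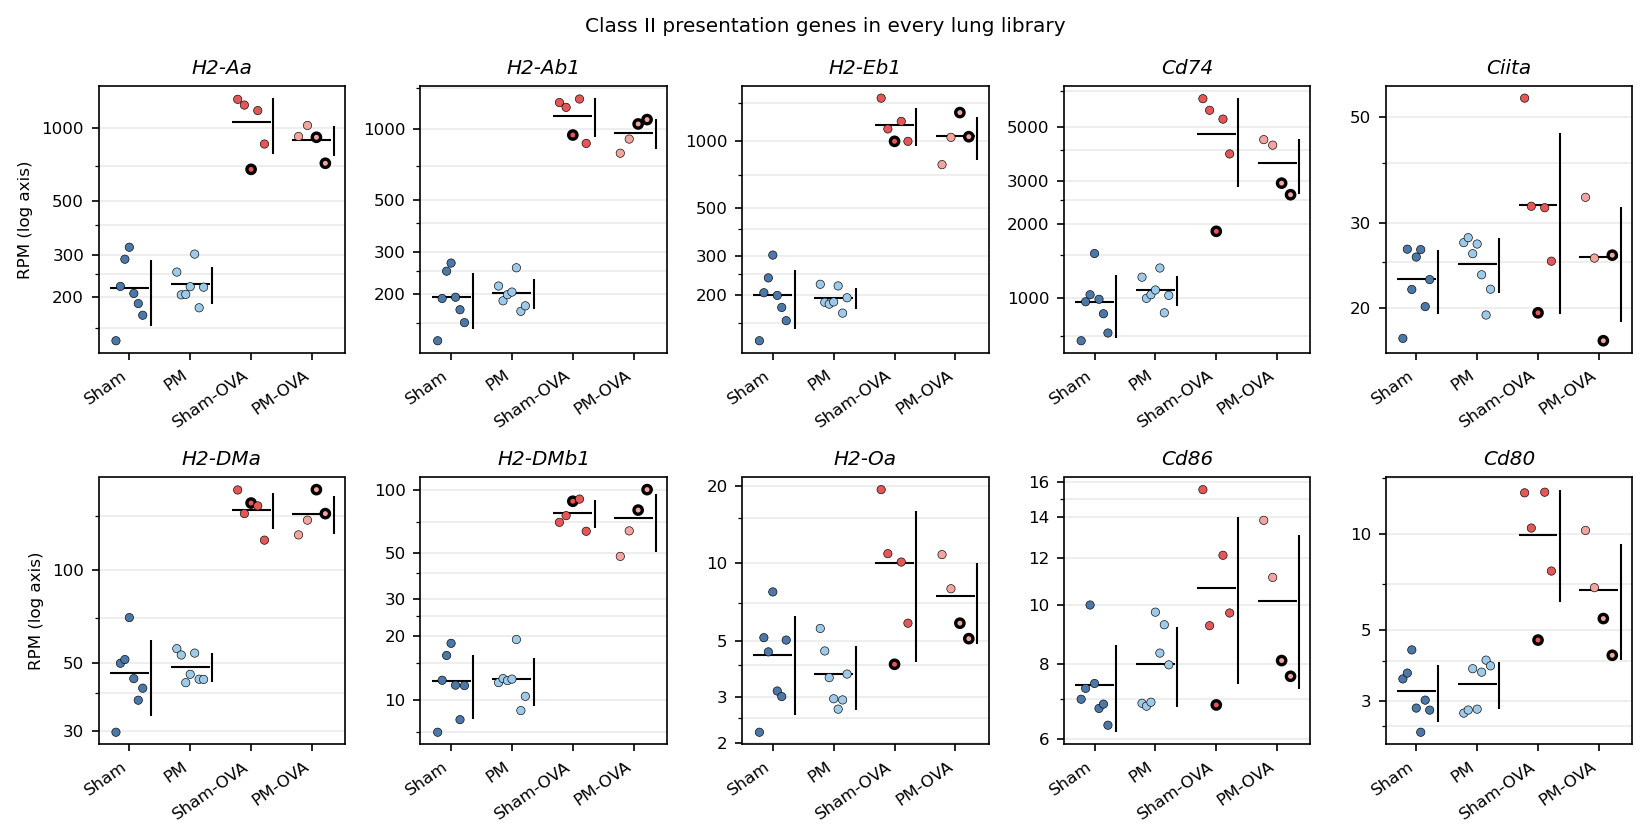
RPM of each of the 10 genes (log axis) in the 23 libraries by group, with 1 point per library, the group mean as a horizontal line and the SD as a vertical line; thick outlines mark the 3 libraries with the fewest reads. All OVA libraries of H2-Aa, H2-Ab1, H2-Eb1, Cd74, H2-DMa and H2-DMb1 lie above all saline libraries, whereas the groups overlap for Ciita, H2-Oa and Cd86.

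H2-Aa, H2-Ab1 and H2-Eb1 encode the chains of the classical I-A and I-E molecules that hold the peptide. H2-Ab1 (GRCm38 chromosome 17, 34257689 to 34269419) ranged from 127 through a median of 191 to 270 RPM in Sham and from 169 through 199 to 258 RPM in PM. It was 1297, 1237, 944, 1342 and 870 RPM in the 5 Sham-OVA libraries and 791, 908, 1052 and 1098 RPM in the 4 PM-OVA libraries. The lowest OVA library was thus above all saline libraries, while Sham overlapped PM and Sham-OVA overlapped PM-OVA. The log2 fold change was 2.57 (SE 0.20, adjusted p = 1.03e-07) in Sham and 2.25 (SE 0.15, adjusted p = 6.82e-07) in PM offspring, 5.96- and 4.77-fold. H2-Eb1 (chromosome 17, 34305867 to 34316674) rose by nearly the same amount, from 200 ± 59.2 RPM in Sham to 1571, 1139, 1000, 1232 and 1000 RPM in Sham-OVA. In PM offspring it went from 194 ± 21.1 RPM to 784, 1043, 1351 and 1050 RPM in PM-OVA. Its log2 fold changes were 2.60 (SE 0.21, adjusted p = 1.38e-07) and 2.42 (SE 0.16, adjusted p = 5.93e-07). H2-Aa (chromosome 17, 34282744 to 34287823, minus strand), the alpha chain of I-A, ranged from 132 to 322 RPM in saline libraries. It was 1319, 1249, 677, 1186 and 862 RPM in Sham-OVA and 926, 1029, 919 and 717 RPM in PM-OVA. The lowest 2 of these 9 values were from Sham-OVA replicate 3 and PM-OVA replicate 4, the libraries with the fewest reads. H2-Aa rose 4.88-fold in Sham (log2 2.29, SE 0.23, adjusted p = 1.24e-06) and 3.96-fold in PM offspring (log2 1.99, SE 0.16, adjusted p = 2.99e-06).

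Cd74 encodes the invariant chain and lies on chromosome 18, from 60803848 to 60812652. It ranged from 669 through a median of 965 to 1518 RPM in Sham and from 870 through 1032 to 1325 RPM in PM. In Sham-OVA it was 6502, 5831, 1870, 5368 and 3870 RPM, and in PM-OVA 4426, 4203, 2941 and 2638 RPM. All 9 OVA libraries were above the 14 saline libraries, but the 3 with the fewest reads were the lowest of the 9. Cd74 rose 4.60-fold in Sham (log2 2.20, SE 0.30, adjusted p = 1.58e-05) and 3.24-fold in PM offspring (log2 1.70, SE 0.20, adjusted p = 4.34e-05).

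Both chains of H2-DM, which loads peptide onto the classical pairs, rose, the beta chain by more. H2-DMa (chromosome 17, 34119541 to 34139101) was 46.3 ± 12.7 RPM in Sham and 48.5 ± 5.34 RPM in PM. It was 182, 152, 165, 161 and 125 RPM in Sham-OVA and 130, 145, 182 and 152 RPM in PM-OVA, a narrow range in which the libraries with few reads were not low. The rise was 3.44-fold in Sham (log2 1.78, SE 0.18, adjusted p = 1.49e-06) and 3.11-fold in PM offspring (log2 1.64, SE 0.13, adjusted p = 2.98e-06). H2-DMb1 (chromosome 17, 34153072 to 34160230) was 12.2 ± 4.11 RPM in Sham and 12.6 ± 3.28 RPM in PM. It was 69.8, 75.1, 87.9, 90.0 and 63.2 RPM in Sham-OVA and 48.0, 63.5, 79.8 and 99.9 RPM in PM-OVA. These are the largest log2 fold changes among the 10 genes in both cohorts, 2.67 (SE 0.22, adjusted p = 2.08e-07) and 2.47 (SE 0.22, adjusted p = 8.15e-06). H2-DMb1 has a near copy, H2-DMb2, and 11.34% of its windows of 100 bases, the length of a read, are also present in H2-DMb2, so some reads could be counted for either. H2-DMb2 rose as well, with log2 fold changes of 2.90 (adjusted p = 1.33e-06) and 2.36 (adjusted p = 1.74e-05).

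H2-Oa (chromosome 17, 34092340 to 34095234), the alpha chain of the molecule that restrains H2-DM, was low and its groups overlapped. It ranged from 2.19 through 4.52 to 7.74 RPM in Sham and from 2.70 through 3.58 to 5.57 RPM in PM. In Sham-OVA it was 19.4, 10.9, 4.04, 10.1 and 5.84 RPM, and in PM-OVA 10.8, 7.96, 5.84 and 5.08 RPM. The lowest Sham-OVA value rests on 13 reads. Its log2 fold change was 1.01 (SE 0.35, adjusted p = 0.0195) in Sham and 0.89 (SE 0.25, adjusted p = 0.00681) in PM offspring. The PM value was not called with array weights (0.59, adjusted p = 0.115), and neither cohort was with the replicate block (0.98 with adjusted p = 0.0649 and 0.74 with adjusted p = 0.06). Without Sham-OVA replicate 1, its highest library, the Sham value was 0.73 with an adjusted p of 0.0611, and without Sham replicate 1 it was 0.88 with 0.0415. Its partner chain H2-Ob was not called, at 21.4 ± 9.22 RPM in Sham and 21.1 ± 16.4 RPM in Sham-OVA (log2 -0.26, adjusted p = 0.633), and at 20.2 ± 6.74 RPM in PM and 15.4 ± 9.77 RPM in PM-OVA (log2 -0.50, adjusted p = 0.224).

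Ciita, the gene of the class II coactivator, differed less than the classical chains, Cd74 and the H2-DM chains did. It (chromosome 16, 10480059 to 10528418) ranged from 17.3 through 22.9 to 26.5 RPM in Sham and from 19.4 through 26.0 to 28.0 RPM in PM. It was 54.6, 32.6, 19.6, 32.3 and 25.1 RPM in Sham-OVA and 33.997, 25.4, 17.1 and 25.8 RPM in PM-OVA. Only 3 of the 5 Sham-OVA and 1 of the 4 PM-OVA libraries lay above every saline library of their cohort. The log2 fold change was 0.44 (SE 0.22, 95% confidence interval -0.03 to 0.90, adjusted p = 0.0859) in Sham and 0.017 (SE 0.18, 95% confidence interval -0.38 to 0.41, adjusted p = 0.938) in PM offspring. Relative to the shift of all genes these are 0.92 and 0.45. DESeq2, whose scaling removes most of that shift, called Ciita higher at 0.86 (adjusted p = 3.74e-06) and 0.41 (adjusted p = 0.0199). Without Sham-OVA replicate 3, limma called Ciita higher in Sham offspring (0.60, adjusted p = 0.00613). The upper limits of the limma intervals lie below the lower limits of the intervals of H2-Aa, H2-Ab1, H2-Eb1, Cd74, H2-DMa and H2-DMb1 in both cohorts.

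Of the B7 ligands, Cd80 was called in both cohorts and Cd86 in neither; the difference between them was not tested, and their intervals overlapped. Cd80 (chromosome 16, 38455561 to 38496335) ranged from 2.40 through 3.02 to 4.34 RPM in Sham and from 2.75 through 3.70 to 4.03 RPM in PM. It was 13.5, 10.5, 4.66, 13.5 and 7.67 RPM in Sham-OVA and 10.3, 6.80, 5.44 and 4.18 RPM in PM-OVA. The OVA libraries of each cohort were all higher than its saline libraries, though the lowest of each by little, on 15 and 23 reads. Cd80 rose 2.66-fold in Sham (log2 1.41, SE 0.26, adjusted p = 2.07e-04) and 1.77-fold in PM offspring (log2 0.82, SE 0.23, adjusted p = 0.00757), the PM value not being called with array weights (0.60, adjusted p = 0.0648). Cd86 (chromosome 16, 36603869 to 36666081, minus strand) ranged from 6.33 through 6.99 to 10.01 RPM in Sham and from 6.80 through 7.97 to 9.74 RPM in PM. It was 15.6, 9.25, 6.84, 12.1 and 9.71 RPM in Sham-OVA and 13.8, 11.1, 8.10 and 7.63 RPM in PM-OVA, overlapping the saline libraries. Its log2 fold change was 0.47 (SE 0.20, adjusted p = 0.0527) in Sham and 0.30 (SE 0.20, adjusted p = 0.19) in PM offspring, or 0.95 and 0.73 relative to the shift of all genes. DESeq2 called it higher at 0.88 (adjusted p = 3.98e-07) and 0.71 (adjusted p = 5.75e-05). Without Sham-OVA replicate 3, limma also called it in Sham offspring (0.61, adjusted p = 0.00427).

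**Figure D2:**
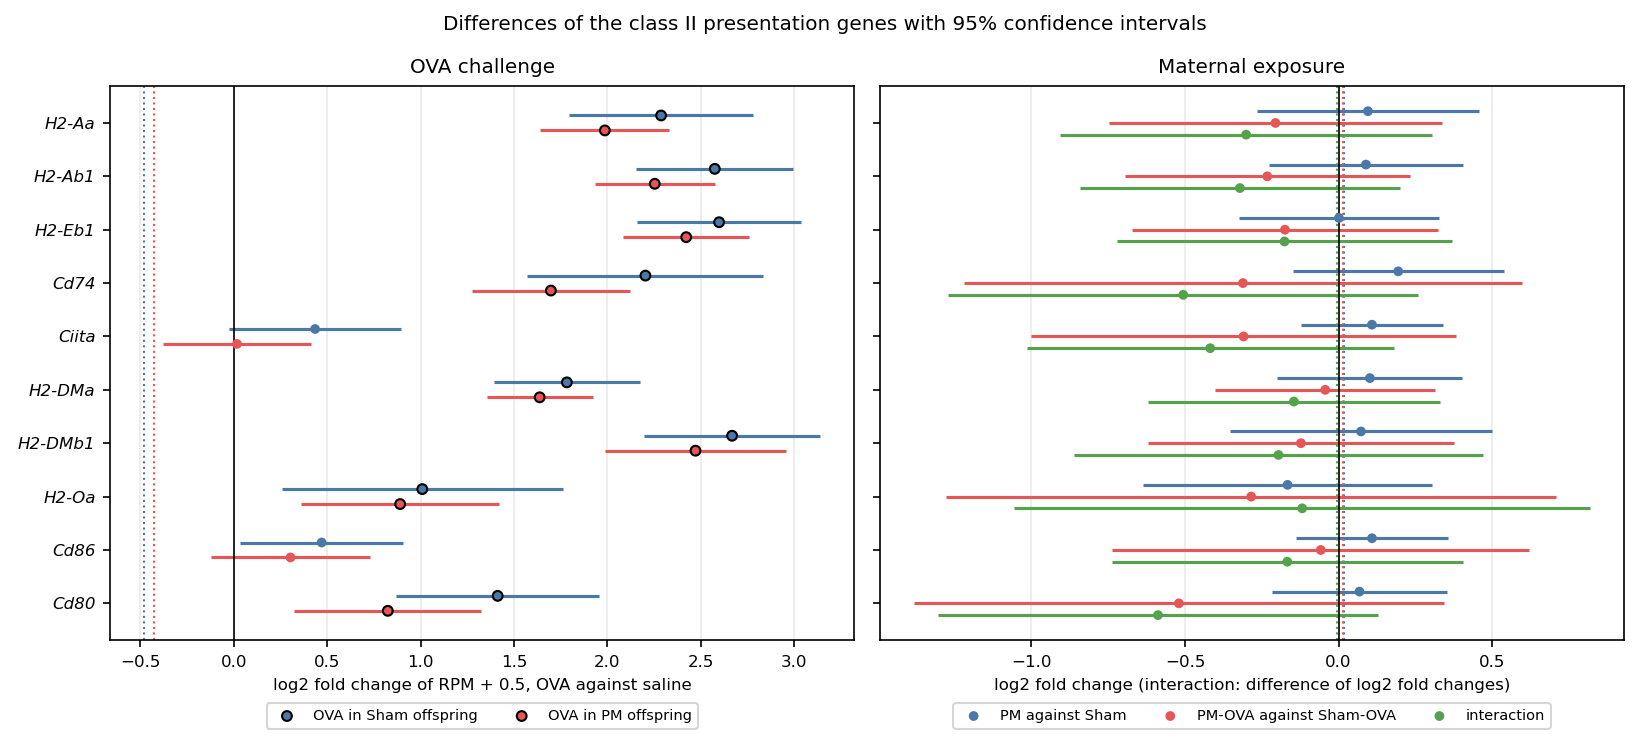
Log2 fold changes of RPM + 0.5 of the 10 genes with 95% confidence intervals from limma, for OVA against saline in each cohort (left) and for the maternal comparisons and the interaction (right); dotted lines are the medians of all genes tested and black outlines mark adjusted p under 0.05. On the left Ciita and Cd86 lie between 0.017 and 0.47, above the dotted medians, while H2-Eb1 and H2-DMb1 lie between 2.42 and 2.67. Every interval on the right includes 0.

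Ratios of reads between genes of the same library do not depend on how libraries are scaled, so they show which genes rose by more than others. They are not corrected for gene length, were given no test, and only their change between groups is described. Ciita reads per H2-Ab1 read ranged from 0.0876 to 0.152 in the 14 saline libraries and from 0.0163 to 0.0430 in the 9 OVA libraries, with no overlap. Cd74 reads per Ciita read likewise went from a range of 31.4 to 59.4 to one of 95.6 to 179. H2-Ab1 and Cd74 were thus higher relative to the transcript of their coactivator in each OVA library than in every saline library. H2-DMa per H2-Ab1 went from a range of 0.205 to 0.283 to one of 0.120 to 0.174, and H2-DMb1 per H2-DMa from 0.201 to 0.360 up to 0.370 to 0.656, again without overlap. Reads of the peptide exchange genes were thus shifted toward H2-DMb1, some of whose reads could belong to H2-DMb2. The protein pair was not measured. H2-DMb1 per H2-Ab1 overlapped between saline (0.0468 to 0.0771) and OVA libraries (0.0538 to 0.0931). H2-Ob per H2-Oa, the chains of the H2-DM inhibitor, went from a range of 2.85 to 7.58 down to one of 1.00 to 2.73. Cd86 per Cd80 went from 1.98 to 2.81 in Sham to 0.885 to 1.47 in Sham-OVA, and from 1.82 to 3.44 in PM to 1.35 to 1.83 in PM-OVA, where the ranges overlapped slightly.

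The ratio of Cd74 to H2-Ab1 was lowest in the 3 libraries with the fewest reads. All 3 were OVA libraries, so depth and challenge cannot be told apart there. It was 4.13 to 5.75 in saline libraries and 4.00 to 5.598 in 6 of the 9 OVA libraries, but 1.98, 2.80 and 2.40 in the 3 libraries with the fewest reads (Sham-OVA replicate 3, then PM-OVA replicate 3 and replicate 4). H2-Aa per H2-Ab1 was also lower there, at 0.717, 0.874 and 0.653 against 0.883 to 1.171 in the other 6 OVA libraries. H2-Oa per H2-DMa was 0.0245 to 0.0334 in the 3 libraries and 0.0468 to 0.107 in the other 6, whereas H2-DMb1 per H2-Ab1 was higher in the 3 (0.0758 to 0.0931) than in the 6 (0.0538 to 0.0727). These 3 libraries make up 1 of 5 in Sham-OVA and 2 of 4 in PM-OVA, and the part of their depth or RNA in the values of Cd74, H2-Aa and H2-Oa was not tested. Without them the log2 fold change of Cd86 in PM offspring was 0.62 (adjusted p = 0.0146), and 9 of the 10 genes were called in PM offspring.

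**Figure D3:**
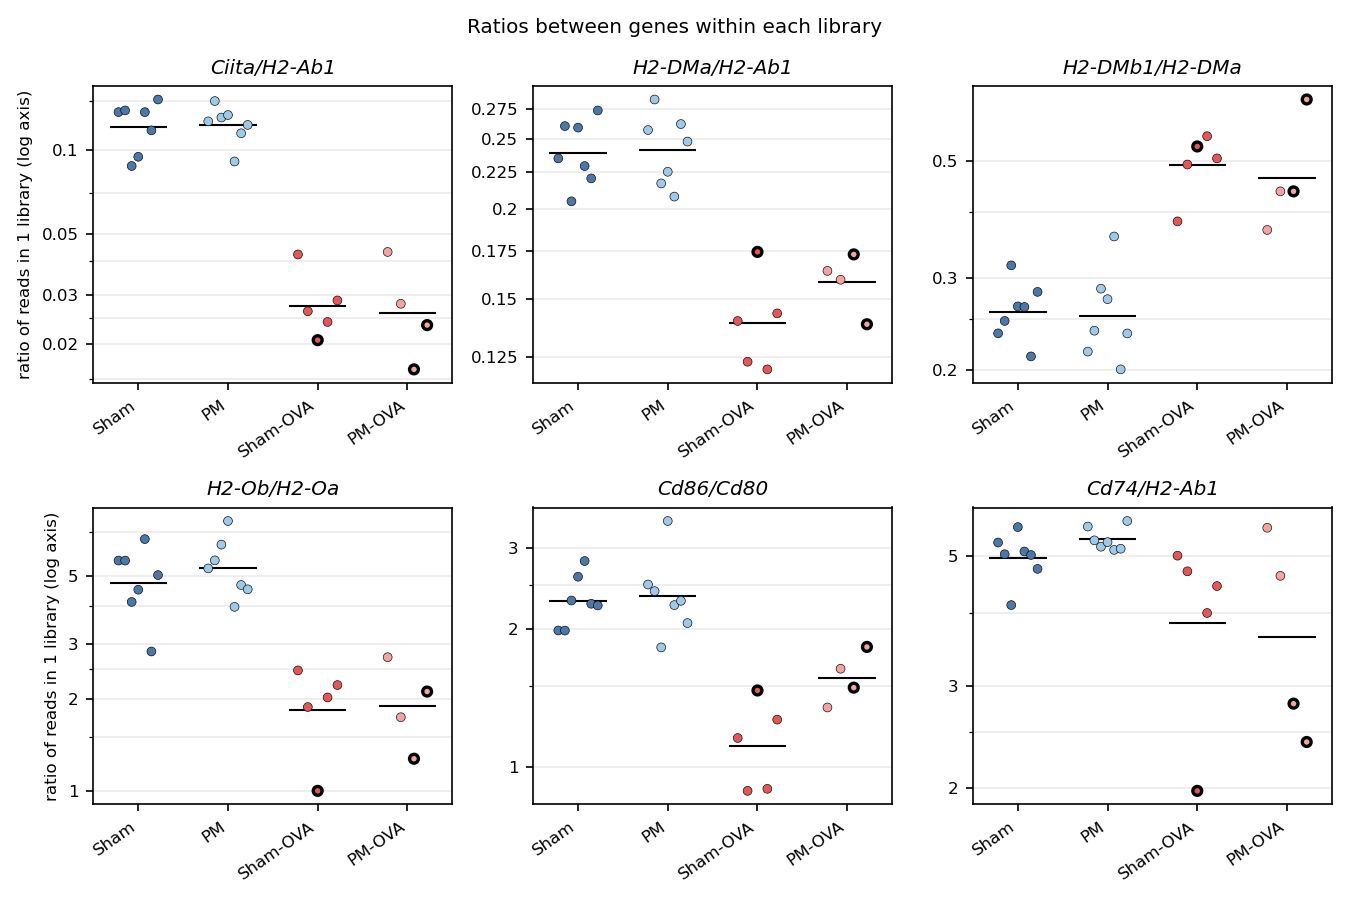
Ratios of reads between pairs of genes within each library (log axis) by group, with 1 point per library and lines at the mean of the log ratios; thick outlines mark the 3 libraries with the fewest reads. Ciita per H2-Ab1 is at most 0.0430 in OVA and at least 0.0876 in saline libraries, and Cd74 per H2-Ab1 is below 3 only in the 3 outlined libraries.

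Maternal PM2.5 exposure was compared within saline and within OVA-challenged offspring, and the interaction asks whether the OVA response differed between cohorts. None of the 10 genes was called in any of these, and 0.0% of all genes tested were called in PM against Sham, 0.0% in PM-OVA against Sham-OVA and 0.0% in the interaction with limma. At an unadjusted p under 0.05, 0 of the 10 genes passed in each, as against 731, 313 and 854 of all genes. DESeq2 called 0, 1 and 2 genes and edgeR 0 in each, none of them among the 10. With array weights, which give less weight to libraries far from their group, limma called Cd74 (-0.94, adjusted p = 0.0236) and Cd80 (-1.16, adjusted p = 0.0123) in the interaction, among 4616 genes in all. In PM against Sham the log2 fold changes ran from -0.17 for H2-Oa to 0.19 for Cd74 (95% confidence interval -0.15 to 0.54, adjusted p = 0.898). For H2-Ab1 the interval was -0.23 to 0.40 around 0.089, so a difference between cohorts as large as the OVA response lay well outside it. Without Sham replicate 1, the values for H2-Aa, H2-Ab1, H2-Eb1 and H2-DMb1 were -0.015, -0.0052, -0.10 and -0.043 in place of 0.096, 0.089, 0.0012 and 0.073. Exposure was given to dams and the labels name no litters, so offspring were treated as independent. Littermates within a group could make the intervals of the maternal comparisons too narrow and their p-values too small.

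In PM-OVA against Sham-OVA all 10 fold changes were below 0, from -0.52 for Cd80 (95% confidence interval -1.38 to 0.34) to -0.043 for H2-DMa (-0.40 to 0.31), and none was called. H2-Ab1 was 0.23 lower (interval -0.70 to 0.23) and Cd74 0.31 lower (-1.22 to 0.60) on the log2 scale. Interaction values were also all below 0, from -0.59 for Cd80 (95% confidence interval -1.30 to 0.13) to -0.12 for H2-Oa (-1.06 to 0.82). These genes were measured on the same libraries and the comparisons share groups, so the common sign is 1 observation and not 10. Without the 3 libraries with the fewest reads, Cd86 was 0.12 higher in PM-OVA than in Sham-OVA. The intervals of Cd74, H2-Oa and Cd80 were the widest of the 10 in PM-OVA against Sham-OVA.

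Other genes of the class II route were followed to see which steps moved with the 10 genes, and again none was called for maternal exposure. Among the remaining class II chains, 2 of the 3 tested rose in each cohort, H2-DMb2 as above and H2-Eb2, a beta chain gene, with log2 fold changes of 2.29 (adjusted p = 5.64e-04) and 2.08 (adjusted p = 1.11e-04), and the third was H2-Ob. H2-Ea was not analysed here. Of the 7 genes of the complex that binds the X and Y boxes, 1 rose and 3 fell in Sham, and 1 rose and 4 fell in PM offspring, near the shares of all genes tested (20.6% higher and 47.5% lower in Sham, 20.1% and 45.2% in PM offspring). The median of these 7 genes was -0.22 in Sham and -0.61 in PM offspring, against -0.48 and -0.43 for all genes. Rfxank, an RFX subunit, rose by 0.60 (adjusted p = 0.00361) and 0.49 (adjusted p = 0.0373). Rfx5, the DNA-binding subunit, fell by 0.67 (adjusted p = 6.67e-04) and by 0.61 (adjusted p = 0.00379), close to the shift of all genes. DESeq2 also called it lower (-0.33 with adjusted p = 0.00346 and -0.23 with adjusted p = 0.0497) and edgeR did not (-0.23 with adjusted p = 0.0773 and -0.23 with adjusted p = 0.0917). Rfxap, the third subunit, had 0.020 (adjusted p = 0.91) and -0.27 (adjusted p = 0.112), and in Sham offspring was called higher by DESeq2 (0.36, adjusted p = 0.00381) and edgeR (0.46, adjusted p = 0.00328).

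Interferon gamma is the classical inducer of Ciita. Ifng did not pass the filter, with mean levels of 0.274 RPM (Sham), 0.234 RPM (PM), 0.391 RPM (Sham-OVA) and 0.103 RPM (PM-OVA). Of 6 genes of its route tested, 3 rose and 3 fell in each cohort. Among all genes 20.6% were higher and 47.5% lower in Sham, and 20.1% and 45.2% in PM offspring. The falls in this list were near that share, and rises were more frequent than among all genes. Irf1, a transcription factor that interferon gamma induces, rose by 0.84 (adjusted p = 6.07e-04) and 0.72 (adjusted p = 0.00942). The other genes tested are named after their values were seen. Socs1 rose by 2.96 in Sham and 2.51 in PM offspring, and Ifngr2 by 1.94 and 1.63. Those that fell were Ifngr1 (-1.37 and -1.34), Jak1 (-1.21 and -1.41) and Jak2 (-0.95 and -0.79).

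Most genes that prepare antigen in the endosome rose with the class II chains. Of 11 genes of processing and class II turnover, 7 rose and 3 fell in each cohort, with a median log2 fold change of 1.599 in Sham and 1.23 in PM offspring. For all genes the shares were 20.6% higher and 47.5% lower in Sham, and 20.1% and 45.2% in PM offspring. Ctss, the protease that trims the invariant chain, rose 4.13-fold and 3.04-fold, from 112 ± 34.7 RPM in Sham to 479 ± 179 RPM in Sham-OVA. Lgmn, an asparagine endopeptidase, rose by 2.90 (adjusted p = 2e-08) and 2.58 (adjusted p = 3.17e-05) on the log2 scale, and Ifi30, a thiol reductase of the endosome, by 2.06 (adjusted p = 4.37e-05) and 1.66 (adjusted p = 1.11e-05). The genes that fell included the ubiquitin ligases Marchf1, which removes class II molecules from the cell surface, and Marchf8, both named after their values were seen. Marchf8 fell by 2.04 (adjusted p = 1.98e-05) and by 1.88 (adjusted p = 8.13e-04), and Marchf1 by 0.78 (adjusted p = 0.0311) and by 1.00 (adjusted p = 0.00619), the Sham value not called by DESeq2 (-0.35, adjusted p = 0.128).

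**Figure D4:**
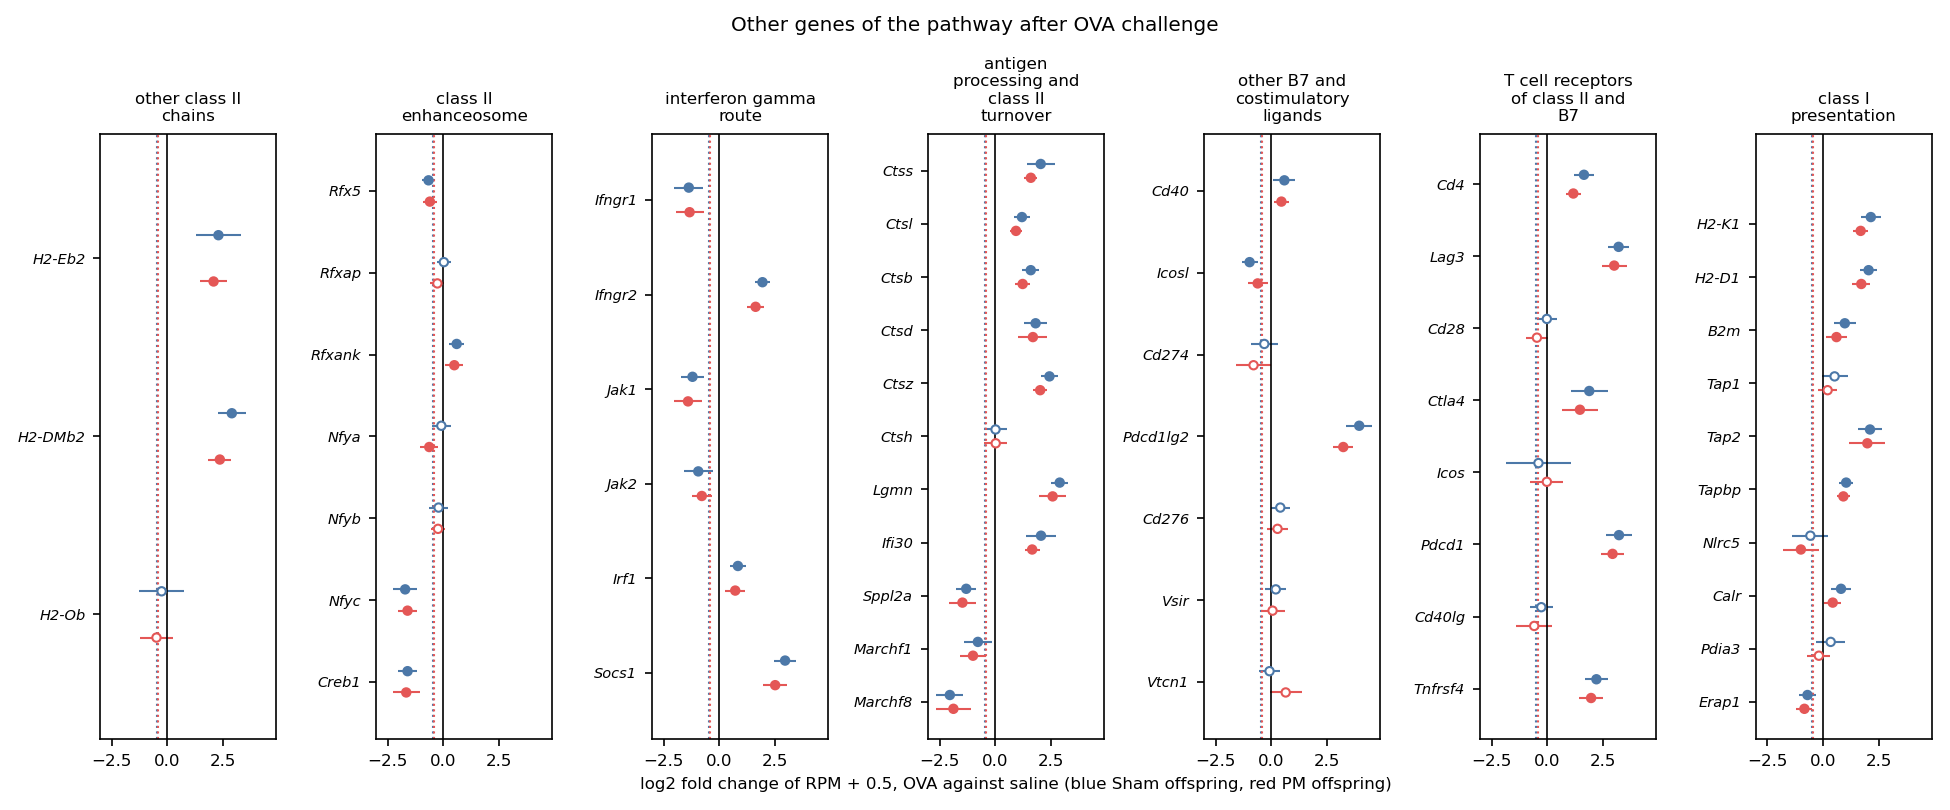
Log2 fold changes of RPM + 0.5 after OVA challenge with 95% confidence intervals for the other genes of the route in 7 lists, in Sham (blue) and PM offspring (red); filled points have an adjusted p under 0.05 and dotted lines are the medians of all genes tested. Most processing proteases lie to the right of 0, whereas the genes of the X and Y box complex lie mostly at or to the left of 0.

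Further B7 family and costimulatory ligands did not move as a group: of 7 tested, 2 rose and 1 fell in each cohort. Shares of all genes were 20.6% higher and 47.5% lower in Sham, and 20.1% and 45.2% in PM offspring. Without Sham replicate 1, 1 of these ligands rose and 1 fell in Sham offspring, the only pathway list whose counts differed without that library. Pdcd1lg2, encoding PD-L2, rose from 0.394 ± 0.270 RPM in Sham to 13.7 ± 5.03 RPM in Sham-OVA (log2 3.97, adjusted p = 4.08e-08) and from 0.494 ± 0.178 RPM in PM to 9.002 ± 2.08 RPM in PM-OVA (log2 3.25, adjusted p = 6.64e-07). Cd274, encoding PD-L1, the other ligand of PD-1, had -0.31 (adjusted p = 0.351) and -0.79 (adjusted p = 0.0655). Cd40 rose by 0.60 (adjusted p = 0.0328) and 0.46 (adjusted p = 0.0245), and was not called in Sham offspring without Sham replicate 1 (0.54, adjusted p = 0.0623). Icosl, the ICOS ligand, fell by 0.97 (adjusted p = 1.45e-04) and by 0.61 (adjusted p = 0.0208), the latter not called by DESeq2 (-0.19, adjusted p = 0.242).

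On the T cell side, 8 genes for partners of class II, B7 and other costimulatory molecules were tested. Of these, 5 rose in each cohort and 0 fell. The shares of all genes were 20.6% higher and 47.5% lower in Sham, and 20.1% and 45.2% in PM offspring. Cd4, the coreceptor for class II, rose by 1.66 (adjusted p = 8.94e-06) and 1.18 (adjusted p = 8.04e-05), and Ctla4, the inhibitory receptor for Cd80 and Cd86, 3.73-fold (adjusted p = 5.84e-04) and 2.79-fold (adjusted p = 0.00376). Cd28, their activating receptor, had -0.011 (adjusted p = 0.966) and -0.46 (adjusted p = 0.0929), and Icos -0.39 (adjusted p = 0.632) and -0.010 (adjusted p = 0.981).

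Class I presentation, which shows peptides to CD8 T cells, rose in part. Of 10 genes, 6 rose in each cohort, with 1 lower in Sham and 2 in PM offspring, and the medians were 0.90 and 0.52. All genes had shares of 20.6% higher and 47.5% lower in Sham, and 20.1% and 45.2% in PM offspring. The heavy chains H2-K1 and H2-D1 rose by 2.15 (adjusted p = 7.64e-07) and 2.05 (adjusted p = 2.96e-07) in Sham and by 1.70 (adjusted p = 1.04e-05) and 1.72 (adjusted p = 2.61e-05) in PM offspring, and their partner B2m by 0.98 (adjusted p = 0.00191) and 0.61 (adjusted p = 0.0299). Nlrc5, the class I counterpart of Ciita, had -0.57 (adjusted p = 0.192) in Sham and fell by 1.00 (adjusted p = 0.0331) in PM offspring, where DESeq2 did not call it (-0.47, adjusted p = 0.191). The peptide transporter subunit Tap1 had 0.52 (adjusted p = 0.104) and 0.21 (adjusted p = 0.36) and was called higher by DESeq2 in both cohorts.

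Some markers of cells that carry class II molecules also rose after OVA challenge, most of all those of interstitial macrophages, and their part in the values above was not tested. The counts below stand beside shares of all genes of 20.6% higher and 47.5% lower in Sham, and 20.1% and 45.2% in PM offspring. Of 8 interstitial macrophage markers, 7 rose and 0 fell in each cohort, and their summed level went from 761 to 1396 RPM in Sham to 2978 to 4631 RPM in Sham-OVA, and from 908 to 1500 RPM in PM to 2894 to 3507 RPM in PM-OVA. Of 8 dendritic cell markers, 4 rose and 2 fell in Sham, and 4 rose and 0 fell in PM offspring. Their sum went from 103 to 180 RPM in Sham to 232 to 397 RPM in Sham-OVA, and from 109 to 188 RPM in PM to 286 to 345 RPM in PM-OVA. Among those named after their values were seen, Itgax, the integrin CD11c, rose by 2.99 (adjusted p = 1.63e-07) and 2.67 (adjusted p = 7.28e-08). Clec9a, named likewise, fell by 1.11 in Sham offspring (adjusted p = 0.00244) and had -0.54 in PM offspring (adjusted p = 0.079). Xcr1 and Batf3, also named after their values were seen, were higher on average after OVA challenge. Xcr1 averaged 5.13 RPM in Sham, 10.9 in Sham-OVA, 4.76 in PM and 10.5 in PM-OVA. Batf3 averaged 1.36, 30.2, 1.46 and 25.5 RPM in the same order. The rest of the list went both ways. Flt3 averaged 4.58, 17.5, 3.93 and 16.5 RPM, whereas Zbtb46 was lower after OVA challenge, at 49.9, 30.7, 47.5 and 31.9 RPM. Ccr7 averaged 41.6, 38.5, 44.4 and 39.8 RPM, and Cd209a 8.95, 9.58, 8.95 and 8.83 RPM. Of 8 B cell markers, 4 rose and 0 fell in Sham, and 3 rose and 1 fell in PM offspring, with sums of 74.9 to 315 RPM in Sham, 246 to 717 RPM in Sham-OVA, 87.1 to 250 RPM in PM and 228 to 423 RPM in PM-OVA. Sums of the interstitial macrophage and dendritic cell lists therefore did not overlap between OVA and saline libraries, and those of the B cell list did. Much of the dendritic cell sum was Itgax, which macrophages also express, at 24.9 RPM on average in Sham and 206 RPM in Sham-OVA. Without Itgax the sums overlapped, at 85.3 to 146 RPM in Sham, 124 to 158 RPM in Sham-OVA, 77.7 to 156 RPM in PM and 125 to 151 RPM in PM-OVA. Without Sham replicate 1, 3 of the 8 B cell markers rose in Sham offspring, and the counts of the other 2 lists were as above. No marker of these 3 lists was at 0 in a whole group.

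**Figure D5:**
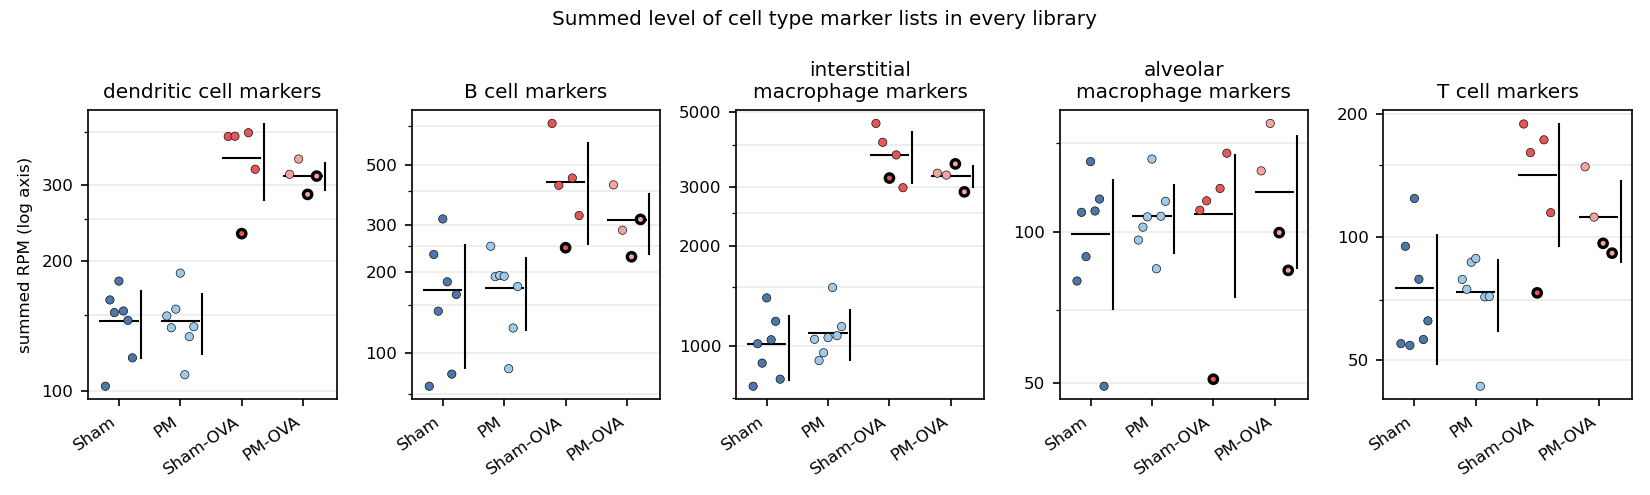
Summed RPM (log axis) of 5 lists of cell type markers in the 23 libraries by group, with 1 point per library, the mean as a horizontal line and the SD as a vertical line; thick outlines mark the 3 libraries with the fewest reads. Interstitial macrophage and dendritic cell sums of all OVA libraries lie above those of the saline libraries, whereas those of B cells, alveolar macrophages and T cells overlap.

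Other cell types showed mixed changes. Of 7 alveolar macrophage markers tested 1 rose and 4 fell in Sham and 2 rose and 4 fell in PM offspring, and Ear1, another of them, was at 0 in all PM, Sham-OVA and PM-OVA libraries. In each cohort 5 of 7 plasma cell markers rose and 1 fell, and 4 of 5 eosinophil markers rose and 1 fell. T cell markers rose in 4 of 6 in Sham and 3 of 6 in PM offspring, and 0 fell. Of 7 monocyte markers 1 rose and 2 fell in Sham, and 2 rose and 1 fell in PM offspring. Alveolar type 2 cells, which can carry class II molecules, had 1 marker higher and 3 lower of 7 in each cohort, and capillary endothelium 2 higher and 2 lower of 6, where 20.6% of all genes were higher and 47.5% lower in Sham and 20.1% and 45.2% in PM offspring. The counts of the type 2 cell list were thus near those shares. Without Sham replicate 1, capillary endothelium had 1 of 6 markers higher in Sham offspring.

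Outside the list of 10, the genes whose levels followed H2-Ab1 most closely over the 23 libraries were Ctsz, Capg, Blnk, Acp5 and Ly86, with Pearson r of log2(RPM + 0.5) of 0.995, 0.994, 0.992, 0.991 and 0.989. Among the other 9 genes of the list r was 0.994 for H2-Eb1, 0.987 for H2-Aa, H2-DMa and H2-DMb1, 0.950 for Cd74, 0.828 for Cd80, 0.734 for H2-Oa, 0.603 for Cd86 and 0.425 for Ciita. These values are a description over libraries that share the OVA difference and their depth. When deviations from the group means were used instead, the closest outside the list were Ctsz at 0.908, Atp6ap1 at 0.884, Macroh2a1 at 0.875, Capg at 0.872 and Ptpn2 at 0.864. On that scale H2-Eb1 had 0.892, H2-Aa 0.832, H2-DMa 0.822, H2-DMb1 0.816 and Cd74 0.603, while H2-Oa had 0.441, Ciita 0.366, Cd86 0.212 and Cd80 0.128. Ctsz, which encodes the lysosomal protease cathepsin Z and led both rankings, was 150 ± 33.8 RPM in Sham and 811 ± 160 RPM in Sham-OVA, and 157 ± 25.4 RPM in PM and 640 ± 96.3 RPM in PM-OVA. Its log2 fold changes of 2.44 (SE 0.18, adjusted p = 8.41e-08) and 2.02 (SE 0.15, adjusted p = 1.76e-06) were near those of H2-Ab1. Without Sham replicate 1, Ctsz led both rankings again (0.995 and 0.894), Anpep took the place of Ly86, and in the second ranking Laptm5 took that of Ptpn2.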

How the data were processed

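RNA-Seq was done on lung of 23 offspring (Sham, n = 7; PM, n = 7; Sham-OVA, n = 5; PM-OVA, n = 4), assigned from the maternal exposure and challenge in the sample labels. Libraries were poly(A) selected and stranded, and reads were single-end and 100 bases long. Trimmomatic, Bowtie2 (which does not split reads over introns) with GRCm38, mm10 in the labels, and SeqMonk were used by the authors, whose deposited table holds RPM for 35322 genes. Its name says RPKM, but 100% of values in every library were whole multiples of what 1 read is worth, within 0.01 reads and whatever the gene length, so the values were taken as RPM and the reads recovered. The labels name no litters, and p-values measure the spread between these animals.

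The members and gene lists were chosen with earlier results of these data known. Tests used limma 3.58.1 (R 4.3.3, variance trend) on log2(RPM + 0.5), a scale that understates changes of low genes. A gene was tested if 4 or more libraries reached 0.5 RPM, which left 16795, and p-values were two-sided and adjusted over all of these by the Benjamini-Hochberg method. A comparison took in its own 2 groups, and the interaction all 4. Calls were made at an adjusted p under 0.05. Levels per kilobase used summed exon lengths from the GENCODE annotation. Genes named were the 10 members, pathway genes set down by name whatever their values, and the 5 genes most correlated with H2-Ab1 by each of 2 measures, unless the text says otherwise. Alternatives were other pseudocounts, filters and scalings, a single fit, array weights, replicate blocks, omission of each library, and count tests of the recovered reads in DESeq2 1.42.0 and edgeR 4.0.16. Omission of the 3 libraries with the fewest reads, of Sham replicate 1 from the gene lists and the likeness to H2-Ab1, and of Itgax from the dendritic cell sum was chosen after seeing the data. Fits were tested on simulated data. Replicate numbers were not used to pair the samples, except in the replicate blocks. Precision is limited by depth for low genes, most of all in the 3 libraries with the fewest reads. A gene of the interferon gamma list is not reported here and was left out of its counts.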

Additional observations from a re-analysis of the deposited data

Results flagged for a closer look

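In 40 sets of 1 gene and 1 group, a library was compared with the others of its group, and by chance about 1 in 20 such sets would hold a library this far apart. Cd74 was highest in Sham replicate 4, at 1518 RPM, where the next Sham library had 1031 RPM and the lowest 669 RPM. H2-DMb1 was highest in PM replicate 5, at 19.3 RPM, where the next PM library had 12.6 RPM. Cd86 was highest in Sham replicate 3, at 10.01 RPM, where the next Sham library had 7.42 RPM, and without that library Cd86 was called higher in Sham-OVA (log2 0.54, adjusted p = 0.0300 in limma).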

How the results depend on the processing

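The count of 8 genes called after OVA challenge ranged from 7 to 10 in Sham and from 6 to 10 in PM offspring over the alternatives, and stayed at 8 in PM offspring without any 1 library. It was 10 in both cohorts with quantile normalisation, median-of-ratios scaling, DESeq2 and edgeR, and 6 in PM offspring with array weights, where H2-Oa (0.59, adjusted p = 0.115) and Cd80 (0.60, adjusted p = 0.0648) were not called. Counts past the study's threshold were less stable. In Sham offspring (3) they were 6 with quantile normalisation, median-of-ratios scaling and 1 fit of all 4 groups, and 7 with array weights, DESeq2 and edgeR. In PM offspring (2) they were 0 with no filter on low values and without the 3 libraries with the fewest reads, 1 with median-of-ratios scaling and edgeR, 5 with 1 fit of all 4 groups and array weights, and 8 with DESeq2. Leaving out 1 library gave 0 to 6 in Sham (0 without Sham-OVA replicate 2, 1 without replicate 4, 6 without replicate 3) and 0 to 4 in PM offspring (4 without PM-OVA replicate 1, 1 without PM replicate 5, 0 in other cases). The cause of these differences was not tested. With the replicate block, 7 genes were called in each cohort, 0 past the study's threshold in either, H2-Oa was not called (0.98 with adjusted p = 0.0649 and 0.74 with adjusted p = 0.06 in limma), and Ciita in PM offspring was -0.12. Deviations of same-numbered libraries correlated with mixed sign, from -0.31 to 0.62 in PM-OVA against Sham-OVA. The labels name no pairs, so no pairing was assumed. The numbers are those of the sample titles, and a pairing by other numbers was not tested.

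Values near 0 changed sign. Ciita in PM offspring was -0.25 with array weights and -0.13 to 0.19 without 1 library. H2-Eb1 in PM against Sham was -0.064 with quantile normalisation, -0.013 with median-of-ratios scaling, -0.025 with array weights, -0.049 with DESeq2 and -0.054 with edgeR. Without 1 library, PM against Sham was -0.015 to 0.20 for H2-Aa, -0.0052 to 0.18 for H2-Ab1, -0.10 to 0.11 for H2-Eb1 and -0.043 to 0.18 for H2-DMb1, and PM-OVA against Sham-OVA was -0.13 to 0.029 for H2-DMa, -0.29 to 0.058 for H2-DMb1 and -0.21 to 0.085 for Cd86. H2-DMa in PM-OVA against Sham-OVA was 0.027 with array weights, whose estimate stopped before it converged in that comparison, and Cd86 was 0.12 without the 3 libraries with the fewest reads. In the interaction, array weights gave 0.013 for H2-Eb1, 0.025 for H2-DMa and 0.047 for H2-DMb1, Cd86 was 0.0067 without the 3 libraries with the fewest reads, and H2-Oa was -0.38 to 0.16 without 1 library. Array weights, which lower the weight of libraries far from their group, also called 2 genes in the interaction, Cd74 (-0.94, adjusted p = 0.0236 in limma) and Cd80 (-1.16, adjusted p = 0.0123), among 4616 of all genes; no other alternative called any of the 10 there. Low depth limits Ciita, H2-Oa, Cd80 and Cd86 most, which had 13 to 63 reads in Sham-OVA replicate 3.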
